A study of Mus musculus with 14 samples.

Results

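A set of 9 genes of the cytoskeleton and of cell-matrix attachment in smooth muscle was followed. They encode the intermediate filament proteins desmin (Des), vimentin (Vim) and synemin (Synm), the actin crosslinkers filamin A (Flna) and alpha-actinin 1 (Actn1), and the attachment proteins vinculin (Vcl), talin 1 (Tln1), integrin-linked kinase (Ilk) and the integrin alpha8 chain (Itga8). The 9 genes were listed by name for the structures they build, with no rule on measured values, although earlier results of these data were known when the list was made. They are 9 of the 40481 genes of the bulk RNA-seq table, and all 9 were among the 20886 genes that passed the filter on low counts.

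Smooth muscle cells have no sarcomeres. Their actin filaments are anchored inside the cell at dense bodies, which are rich in alpha-actinin and are tied into a network by intermediate filaments of desmin, vimentin and synemin. At the membrane, actin filaments end in adhesion plaques, where talin and vinculin couple them to integrins, and integrin-linked kinase joins the integrin tail as a scaffold. Integrin alpha8 pairs with integrin beta1 and binds matrix ligands such as nephronectin and fibronectin. In the gut wall this chain passes the force of contraction to the surrounding matrix.

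The RNA came from the muscularis, the layer of muscle that lies outside the mucosa, taken from the colon and jejunum of C57BL/6 mice. The libraries labelled KO carried the genotype Carmn iKO, an engineered loss of the long noncoding RNA gene Carmn that is active in smooth muscle. The libraries labelled WT carried the genotype WT mTmG, where mTmG is the name of a fluorescent Cre reporter. Each of the 4 combinations of genotype and tissue had 3 bulk libraries made from total RNA of tissue separated by hand and frozen. The short names KO and WT are these labels. The libraries were m1, t4 and t6 for KO colon, t1, t6 and t7 for WT colon, m1, t1 and t4 for KO jejunum, and t1, t6 and t7 for WT jejunum. A single-nucleus library per genotype, which reads RNA and open chromatin from the same nuclei, was made from colon only. The Cre driver, the mouse age, any treatment and any pooling of mice are not named in the labels. Nothing in them says whether the mice labelled KO also carried mTmG. It is not stated whether the 3 libraries of a group came from separate mice, so p-values measure the spread between these libraries, which may be technical.

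The bulk libraries held 24254905 to 44315104 counts each. Carmn, which should be low in the libraries labelled KO, was not: it stood at 461, 303.8 and 717.5 counts per 1000000 (CPM) in KO colon against 251.5, 171.4 and 351.3 in WT colon, and at 995.5, 817 and 908.4 against 240.2, 205.6 and 326 in jejunum. Its log2 fold change was 0.94 in colon (edgeR adjusted p = 0.234) and 1.82 in jejunum (adjusted p = 0.0646). The counts therefore go against the label, and the labels do not say whether the counted part of the gene was deleted, so every direction here is one between libraries labelled KO and WT. The 10 smooth muscle markers were present in all 12 libraries. Their summed level ran from 25270 to 35160 CPM in KO colon and from 42130 to 60740 CPM in WT colon, with no overlap, and from 41330 to 67170 against 41590 to 44670 CPM in jejunum. Fibroblast markers summed to 12850 CPM in KO colon t4 and to 2624 to 7412 CPM in the other 11 libraries. Epithelial markers summed to between 78.97 and 3302 CPM. In jejunum, macrophage markers were higher in the libraries labelled KO (6 of 6, summing to 319.7 to 779.9 against 110.3 to 224.7 CPM) and summed pericyte markers lower (2169 to 3502 against 4093 to 5484 CPM, although 5 of 6 genes were on the higher side), both sums with no overlap. Enteric neuron markers (309.8 to 418.5 against 430.5 to 500.1 CPM) and, in both tissues, skeletal muscle markers (27.03 to 37.17 against 67.78 to 89.58 CPM in colon, 50.45 to 100.4 against 117.1 to 130 CPM in jejunum) also summed lower with no overlap.

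The promoters of the 9 genes were read first. The 250 bases before the RefSeq start (GRCm38.p6) were searched on both strands for the CArG box, the site of serum response factor, and for the letters TATAAA. All 9 members matched a RefSeq promoter. A CArG box was found in Vcl only, at -227 to -218 from the start, and 1.47% of the 32851 promoters of that length hold one. TATAAA was found in Vim only, at -32 to -27, and 12.4% of promoters hold it. A match is a description of letters. The sequences are shown because they carry the motif matches (Vcl, Vim) or belong to the members with the smallest p between genotypes in colon and between WT tissues (Synm, Itga8), and because open chromatin at them is described after the RNA. Vcl is chr14:20929148-20929397 on the plus strand, with the CArG box in capitals. Vim is chr2:13574267-13574296 on the plus strand, -44 to -15 from the start, with TATAAA in capitals. Synm is chr7:67759743-67759992 and Itga8 chr2:12301945-12302194, both on the minus strand, with no match to either motif. GC content was 67.2% in Vcl, 70.0% in Synm and 56.4% in Itga8, against a median of 52.4% over all promoters.
Vcl: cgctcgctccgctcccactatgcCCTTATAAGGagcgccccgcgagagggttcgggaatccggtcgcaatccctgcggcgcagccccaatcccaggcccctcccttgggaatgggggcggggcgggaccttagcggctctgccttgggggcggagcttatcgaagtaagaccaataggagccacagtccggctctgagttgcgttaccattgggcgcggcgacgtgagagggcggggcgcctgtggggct
Vim: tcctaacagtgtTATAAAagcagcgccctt
Synm: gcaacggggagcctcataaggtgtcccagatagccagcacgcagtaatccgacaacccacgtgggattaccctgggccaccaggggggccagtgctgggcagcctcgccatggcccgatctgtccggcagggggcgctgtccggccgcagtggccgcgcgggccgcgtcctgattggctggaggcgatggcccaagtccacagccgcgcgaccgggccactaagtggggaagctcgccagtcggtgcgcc
Itga8: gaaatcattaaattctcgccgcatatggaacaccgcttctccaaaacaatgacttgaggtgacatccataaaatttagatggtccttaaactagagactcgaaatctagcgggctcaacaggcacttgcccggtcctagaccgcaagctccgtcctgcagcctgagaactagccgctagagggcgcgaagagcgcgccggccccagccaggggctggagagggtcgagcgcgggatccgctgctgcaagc

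In the colon, Synm stood lower and Vim higher in the libraries labelled KO, with no overlap between the groups, while Des overlapped. In the jejunum, Synm was again lower without overlap, and Ilk and Itga8 were higher without overlap. None of the 9 genes passed an adjusted p of 0.05 in edgeR's quasi-likelihood test in either tissue. In bulk tissue, fewer cells of a type and less RNA per cell cannot be told apart, and this holds for each bulk value that follows.

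**Figure D1:**
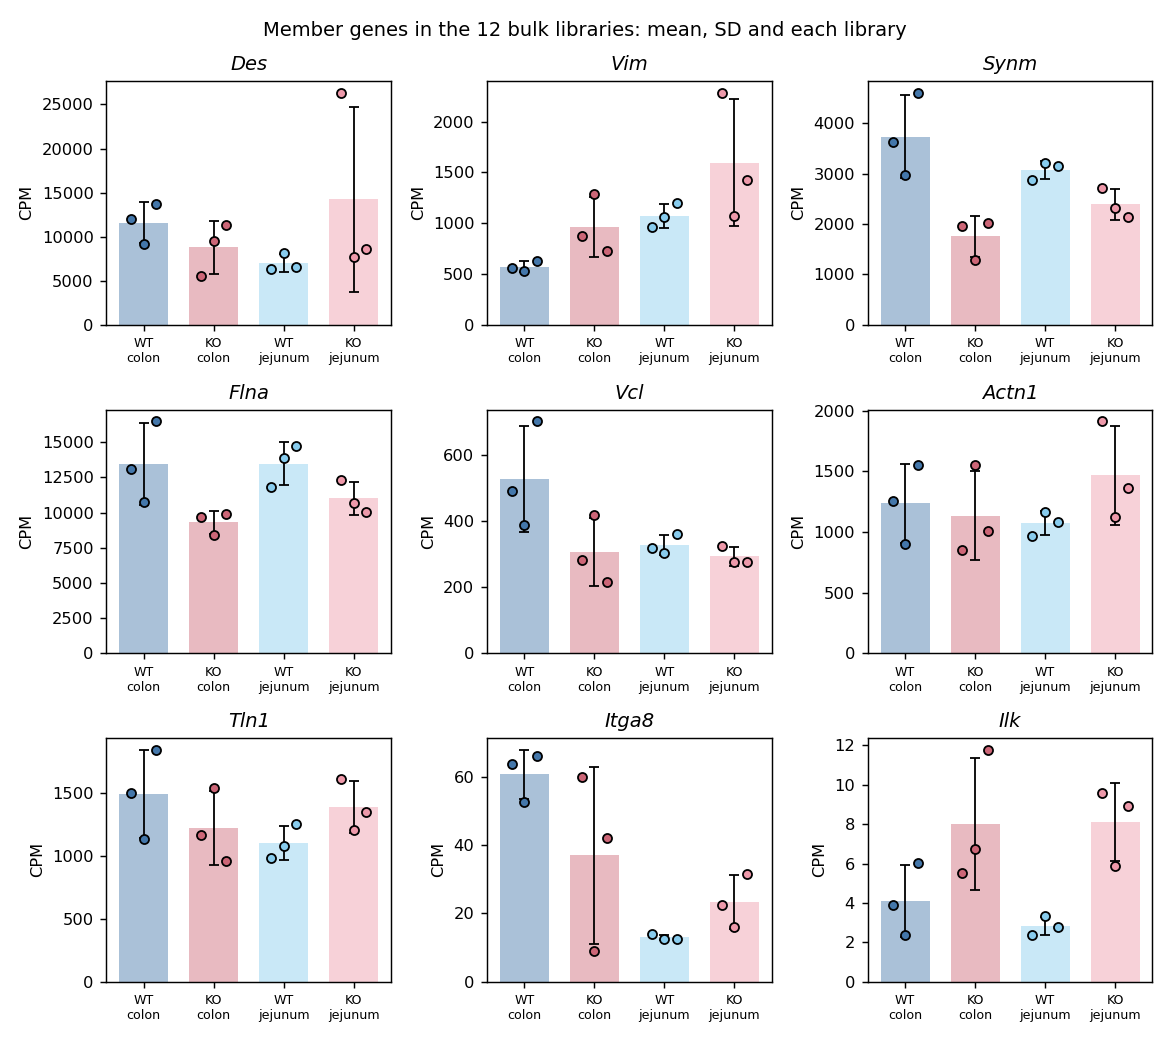
CPM of each of the 9 genes on linear axes from 0, with 1 point per bulk library, bars at the group mean and error bars of 1 SD, in the 4 groups of genotype and tissue (n = 3 each). Synm and Flna in KO colon lie below all WT colon points, Vim in KO colon lies above them, and 1 KO jejunum library stands high for Des at 26340 CPM.

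Des (ENSMUSG00000026208, chromosome 1, 75360329 to 75368579, plus strand of GRCm38, as are all gene coordinates here) encodes the main intermediate filament protein of mature smooth muscle. Its level was 5511, 9532 and 11270 CPM in KO colon and 11970, 9125 and 13670 CPM in WT colon. In jejunum it was 26340, 7738 and 8637 CPM in the libraries labelled KO and 6330, 8125 and 6529 CPM in WT. Colon means were 8771 ± 2954 and 11590 ± 2296 CPM (SD, n = 3), and jejunum means 14240 ± 10490 and 6995 ± 983.9 CPM. The groups overlapped in both tissues, and the single library m1 stood far above the other KO jejunum libraries. The log2 fold change was -0.40 in colon (SE 0.45, 95% interval -1.39 to 0.59, adjusted p = 0.748) and 1.03 in jejunum (SE 0.46, 95% interval 0.03 to 2.02, adjusted p = 0.364). Without m1 the jejunum value was 0.20 (adjusted p = 0.914). The smooth muscle markers summed to 67170 CPM in that same library.

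Vim (ENSMUSG00000026728, chromosome 2, 13573927 to 13582826, plus strand) encodes the filament protein of mesenchymal cells, which is also present in vascular and immature smooth muscle. It was measured at 873.9, 1292 and 723.8 CPM in KO colon against 561.6, 529.1 and 627.9 CPM in WT colon. In jejunum the values were 2285, 1070 and 1428 CPM against 961.4, 1059 and 1196 CPM. All 3 KO colon libraries lay above all 3 WT colon libraries, whereas KO jejunum t1 lay within the WT range. The log2 fold change was 0.75 in colon (SE 0.30, 95% interval 0.1 to 1.4, edgeR adjusted p = 0.27) and 0.57 in jejunum (SE 0.29, adjusted p = 0.434). The highest KO colon value was in t4, the library with the high fibroblast markers, and without it the colon value was 0.48 (adjusted p = 0.476). Without m1 the jejunum value was 0.19 (adjusted p = 0.892). The part of other cell types in these values was not tested in the bulk libraries.

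Synm (ENSMUSG00000030554, chromosome 7, 67730160 to 67759742, minus strand) encodes a large filament protein that needs desmin or vimentin to polymerise and that binds alpha-actinin and vinculin. It stood at 1967, 1281 and 2019 CPM in KO colon and 3633, 2962 and 4605 CPM in WT colon. Jejunum libraries stood at 2722, 2308 and 2136 CPM against 2864, 3202 and 3143 CPM. The groups did not overlap in either tissue, and the gap was wider in colon. Colon means were 1756 ± 411.9 and 3733 ± 826.1 CPM (SD, n = 3), a log2 fold change of -1.09 (SE 0.25, 95% interval -1.63 to -0.54, edgeR adjusted p = 0.102). In jejunum it was -0.36 (SE 0.25, adjusted p = 0.565). DESeq2, run as an alternative, called the colon difference (-1.08, adjusted p = 0.000547). Synm was the member with the smallest colon p.

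Flna (ENSMUSG00000031328, chromosome X, 74223461 to 74249820, minus strand) encodes a large protein that crosslinks actin filaments and ties them to integrins. It was at 9651, 8398 and 9870 CPM in KO colon and at 13080, 10760 and 16500 CPM in WT colon, with no overlap. In jejunum it was 12340, 10690 and 10040 CPM against 11820, 13870 and 14750 CPM, and m1 lay within the WT range. The difference on the log2 scale was -0.53 in colon (SE 0.24, 95% interval -1.06 to 0, adjusted p = 0.346) and -0.29 in jejunum (SE 0.24, adjusted p = 0.646). Levels of Flna followed those of Synm across the 12 libraries (Pearson r = 0.93 of log2 CPM, a description over libraries that share depth and tissue).

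Actn1 (ENSMUSG00000015143, chromosome 12, 80167547 to 80260371, minus strand) encodes the alpha-actinin that crosslinks actin in dense bodies and plaques of non-skeletal cells. Its values were 848, 1549 and 1008 CPM in KO colon and 1254, 904 and 1556 CPM in WT colon. The jejunum values were 1914, 1122 and 1366 CPM against 967.1, 1166 and 1080 CPM. The groups overlapped in both tissues. This gave a log2 fold change of -0.13 in colon (SE 0.29, 95% interval -0.77 to 0.52, adjusted p = 0.901) and 0.45 in jejunum (SE 0.29, adjusted p = 0.542). The colon sign was not stable, with 0.05 without KO colon m1 and 0.10 without WT colon t7.

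Vcl (ENSMUSG00000021823, chromosome 14, 20929398 to 21033676, plus strand) encodes vinculin, which reinforces the link between talin and actin at plaques. It stood at 282.2, 417.6 and 216 CPM in KO colon and 490.7, 388.7 and 702.4 CPM in WT colon, where KO t4 exceeded WT t6. The jejunum libraries gave 325.5, 277.6 and 276.3 CPM against 317.2, 304.4 and 360.3 CPM. The colon log2 fold change was -0.79 (SE 0.27, 95% interval -1.38 to -0.2, edgeR adjusted p = 0.214), and -1.08 without t4 (adjusted p = 0.121). The jejunum value was -0.16 (SE 0.27, adjusted p = 0.845). Vcl shares 25.5% of its exon bases with Ap3m1 on the opposite strand. The use of strand in counting is not stated, so reads of the shared bases cannot be told apart.

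Tln1 (ENSMUSG00000028465, chromosome 4, 43531519 to 43562691, minus strand) encodes talin, which binds the integrin beta tail and activates the receptor. It was at 1161, 1537 and 956.9 CPM in KO colon against 1501, 1133 and 1836 CPM in WT colon, and at 1608, 1202 and 1347 CPM against 984.6, 1076 and 1250 CPM in jejunum. The groups overlapped in both tissues. On the log2 scale the difference was -0.29 in colon (SE 0.25, adjusted p = 0.649) and 0.33 in jejunum (SE 0.25, adjusted p = 0.607).

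Ilk (ENSMUSG00000030890, chromosome 7, 105736592 to 105742925, plus strand) was counted at low levels, between 65 and 466 reads per library. Its level was 5.51, 6.73 and 11.8 CPM in KO colon and 3.89, 2.36 and 6.05 CPM in WT colon, where KO m1 lay within the WT range. Its jejunum level was 9.59, 5.88 and 8.91 CPM against 2.39, 3.32 and 2.77 CPM, with no overlap. The log2 fold change was 0.97 in colon (SE 0.39, 95% interval 0.11 to 1.83, edgeR adjusted p = 0.286) and 1.52 in jejunum (SE 0.40, 95% interval 0.65 to 2.39, edgeR adjusted p = 0.146). DESeq2 called the jejunum difference (1.52, adjusted p = 0.0109). These values are uncertain, because 76.7% of the exon bases of Ilk are shared with Taf10 and 12.9% with Rrp8, both on the opposite strand. Taf10 was also higher in jejunum libraries labelled KO, at 48.27 to 65.95 CPM against 27.96 to 42.57 CPM, and Rrp8 stood at 20.04 to 22.98 against 10.65 to 14.88 CPM. The part of the shared bases in the Ilk difference was not tested.

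Itga8 (ENSMUSG00000026768, chromosome 2, 12106632 to 12301922, minus strand) encodes the integrin chain of the set. It stood at 59.9, 8.98 and 42 CPM in KO colon and at 63.8, 52.6 and 66 CPM in WT colon. In jejunum it was 22.5, 15.9 and 31.5 CPM in the libraries labelled KO and 13.8, 12.6 and 12.6 CPM in WT. The colon groups overlapped, with t4 far below the rest, and the jejunum groups did not. The log2 fold change was -0.72 in colon (SE 0.50, 95% interval -1.82 to 0.39, adjusted p = 0.558) and 0.84 in jejunum (SE 0.50, 95% interval -0.27 to 1.95, adjusted p = 0.507). Without t4, whose fibroblast markers were high, the colon value was -0.25 (adjusted p = 0.707).

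Across the genome 81 genes passed the adjusted threshold in colon (0.388% of those tested) and 45 in jejunum (0.215%), against 0 of 9 members in each. At an unadjusted p below 0.05 there were 4 of 9 members in colon, where the share of all genes was 14.5%, and 2 of 9 in jejunum, where it was 13.2%. Leaving out either KO colon t6 or WT colon t1 brought the colon count to 2, and the jejunum count was 1 without KO colon t6, KO jejunum m1 or any of the 6 WT libraries. DESeq2 called 1 member in each tissue, where it called 960 of the 20886 genes in colon and 805 in jejunum. The groups did not overlap for 3 of 9 members in colon, against 19.2% of all genes, and for 3 of 9 in jejunum, against 22.2%. In colon 7 of 9 members were on the lower side in the libraries labelled KO (median log2 fold change -0.4, and 0 over all genes), and in jejunum 3 of 9 were (median 0.45, and 0.02 over all genes). With 3 libraries against 3, an exact permutation test of a single gene cannot give a two-sided p below 0.1.

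**Figure D2:**
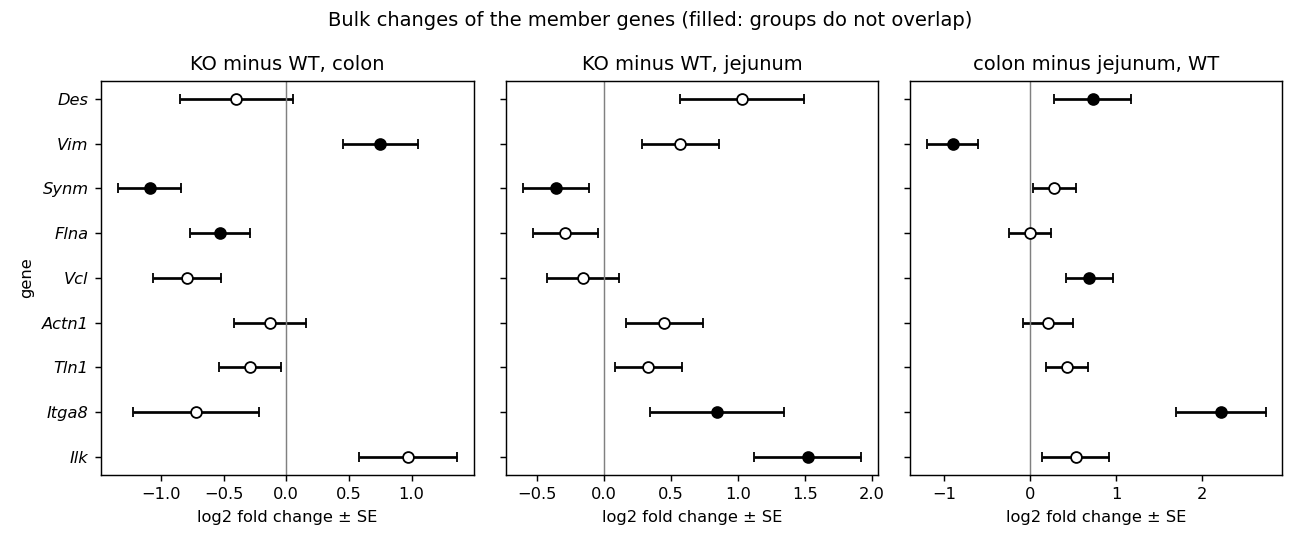
Log2 fold changes of the 9 genes with bars of ± 1 SE from edgeR, for libraries labelled KO against WT in colon, the same in jejunum, and WT colon against WT jejunum. Filled points mark genes whose groups did not overlap, and Synm in colon (-1.09), Ilk in jejunum (1.52) and Itga8 between tissues (2.22) lie farthest from 0 although no adjusted p was below 0.05.

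Whether the genotype contrast differed between tissues was tested as an interaction. Des had the smallest p of the 9 genes, at a log2 difference of -1.43 (SE 0.64), and Itga8 came next at -1.56 (SE 0.71). For Synm the difference was -0.73 (SE 0.35). The edgeR adjusted p of each was 0.941 or more. Without KO jejunum m1 the Des value was -0.57, and without KO colon t4 the Itga8 value was -1.1. In edgeR no gene of the 20886 passed (0%), 1 of 9 members had an unadjusted p below 0.05 against 4.17% of all genes (0 to 4 members with a library left out, with 4 without KO colon t4), and DESeq2 called 38 genes, none of them a member. Of the 9 members, 8 had the lower value in colon (median -0.62, and -0.03 over all genes).

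The smooth muscle markers themselves were lower in KO colon, in 10 of 10 genes, of which 3 had an unadjusted p below 0.05 and 0 passed in edgeR. Each member was therefore also expressed per summed smooth muscle marker of its own library, an alternative added after the sums were seen. On this scale Synm still stood lower in both tissues with no overlap, by a mean log2 difference of -0.38 in colon and -0.53 in jejunum. Flna changed side in colon, from -0.53 to 0.21, as did Des (0.27), Actn1 (0.58) and Tln1 (0.43), while Vim stood at 1.43 and Ilk at 1.71. Vcl was at -0.08 and Itga8 at -0.38 in colon. In jejunum Des was at 0.63, Itga8 at 0.62, Ilk at 1.34 and Flna at -0.45, each with no overlap. The colon direction of Des, Flna, Actn1 and Tln1 thus depended on the scale.

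Between the WT tissues, Itga8 showed the widest gap. Its mean was 60.8 ± 7.18 CPM in WT colon and 13 ± 0.708 CPM in WT jejunum (SD, n = 3), a 4.67-fold difference (log2 2.22, SE 0.52, 95% interval 1.07 to 3.37, edgeR adjusted p = 0.0681). DESeq2 called it (2.21, adjusted p = 0.000719), as did edgeR fitted on these 2 groups only (2.21, adjusted p = 0.000264). That 2-group fit called 904 genes, against 325 in the main fit. Other scalings, limma voom and a fit with the replicate as a block did not call Itga8. Among the libraries left out in turn, it passed only without KO colon t4. Over all alternatives its adjusted p reached 0.284. Vim stood lower in WT colon (-0.90, SE 0.30, edgeR adjusted p = 0.185) and Vcl higher (0.69, SE 0.27, adjusted p = 0.279), both with no overlap. Des was higher in WT colon without overlap too (0.73, SE 0.45, adjusted p = 0.56). The others were Synm at 0.28, Flna at 0, Actn1 at 0.21, Tln1 at 0.43 and Ilk at 0.53. None of the 9 members passed in edgeR, against 325 genes overall (1.56%). At an unadjusted p below 0.05 there were 3 of 9 members, against 13.1% of all genes. DESeq2 called 1 of the 9, where it called 1156 of the 20886 genes. The tissues did not overlap for 4 of 9 members, against 22.9%.

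Ordered over the 4 groups, Itga8 ran from WT colon through KO colon and KO jejunum to WT jejunum, and among neighbours only the last pair did not overlap. Synm ran from WT colon through WT jejunum and KO jejunum to KO colon, with no overlap at the last 2 steps. Vim was highest in KO jejunum and lowest in WT colon, and only KO colon and WT colon did not overlap as neighbours. Per length of exon sequence in WT colon, Des was the most abundant at 3087 ± 611.7 CPM per kb (SD, n = 3), followed by Flna at 1430 ± 307.2. Synm followed at 470.6, Actn1 at 223.7, Tln1 at 152 and Vim at 120.8 CPM per kb. Vcl at 64.37, Itga8 at 8.25 and Ilk at 1.49 CPM per kb were the lowest. The places of Ilk and Vcl are uncertain, because 76.7% of Ilk and 25.5% of Vcl exon bases are shared with a gene on the opposite strand. In WT jejunum Vim, at 226 CPM per kb, stood above Actn1 at 193.6.

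The genes whose log2 CPM pattern over the 12 libraries was most like that of Des, among 10746 well-expressed genes, were Cd81 (r = 0.923), Msrb3 (0.915), Csrp1 (0.896), Actg2 (0.895) and Cnn1 (0.867). For Vim they were Anln (0.972), Kctd10 (0.938), Ankrd63 (0.914), Cyp1b1 (0.912) and Abcb1b (0.89), and for Itga8 they were Hspa1b (0.923), Kcnd3 (0.899), Prnp (0.883), Hectd2 (0.874) and Asap1 (0.866). Among the members, Actn1 was closest to Tln1 (0.81), Des to Actn1 (0.78) and Vcl to Tln1 (0.75). These are descriptions over 12 libraries that share tissue and genotype.

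A list of 58 other genes of the same structures, all of which passed the filter, showed how the members compared with their partners. In colon 1 of 58 passed in edgeR, where 0.388% of all genes did. It was Ldb3, a PDZ and LIM domain protein that binds alpha-actinin. Ldb3 fell from 81.46, 63.96 and 104 CPM in WT colon to 27.12, 19.38 and 23.99 CPM in KO colon (log2 fold change -1.82, SE 0.21, edgeR adjusted p = 0.00738). Every KO colon library lay well under every WT colon library. Leaving out KO colon t6 ended the call (-1.82, adjusted p = 0.0518), as did a fit of the 2 groups only (-1.8, adjusted p = 0.117). At an unadjusted p below 0.05 there were 13 of the 58, with 4 higher and 9 lower, against 14.5% of all genes. The 16 dense body genes had a median of -0.39 with 10 lower, and the whole list had a median of -0.01.

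In jejunum none of the 58 passed in edgeR, and 18 had an unadjusted p below 0.05 (15 higher and 3 lower) against 13.2% of all genes. DESeq2 called 9 of the 58, where it called 805 of the 20886 genes. Without KO jejunum m1 the 18 became 11. The list leaned to the higher side in the libraries labelled KO, with 42 of 58 higher and a median of 0.28 against 0.02 over all genes. The macrophage, pericyte, enteric neuron and skeletal muscle sums that differed in the same contrast stand above, and their part in these values was not tested. Fn1 and Itga5 were among the 3 genes with the smallest p. Fn1, the matrix protein fibronectin, stood at 13940, 4825 and 4378 CPM against 1355, 1209 and 1288 CPM (2.59, SE 0.53, edgeR adjusted p = 0.0777), with the first of these libraries, m1, far above the rest. Without m1 it was at 1.82 (adjusted p = 0.156). Among the libraries left out in turn, it passed only without KO colon t4 (adjusted p = 0.0316), and with other libraries left out the adjusted p reached 0.317. Itga5, the alpha chain of the fibronectin receptor, was at 1793, 728.2 and 1197 CPM against 221.2, 184.1 and 221.6 CPM (2.57, SE 0.54, adjusted p = 0.0867). Both genes were higher in each library labelled KO than in any WT library.

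The interaction called none of the 58 in edgeR, with 10 at an unadjusted p below 0.05 (1 higher and 9 lower) against 4.17% of all genes, and 1 called by DESeq2. The 10 became 18 without KO colon t4 and 17 without KO jejunum t1. Csrp1 (-1.41, SE 0.40) and Itga1 (-1.02, SE 0.29) were among the 3 with the smallest p, with an edgeR adjusted p of 0.941 each. Of the list, 47 of 58 had the lower value in colon, with a median of -0.5 against -0.03 over all genes. Between the WT tissues 3 of 58 passed. Npnt, which encodes the integrin alpha8 ligand nephronectin, was lower in WT colon, at 5.62, 4.2 and 5.19 CPM against 134.7, 162.4 and 159.5 CPM in WT jejunum (log2 -4.93, SE 0.40, edgeR adjusted p = 0.000325). Of the other 4 ligands on the list, 2 were higher in WT colon with no overlap, and none passed. Their log2 values ran from 0.03 to 1.62, with Fn1 at 1.57 (SE 0.51, edgeR adjusted p = 0.184). The ligand at 0.03 was near the floor, at 2.818 against 2.771 CPM. Itga4, an integrin alpha chain, was higher in WT colon (1.26, SE 0.24, edgeR adjusted p = 0.028). The Itga4 call was lost without any of the 6 WT libraries (adjusted p 0.0634 to 0.144).

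**Figure D3:**
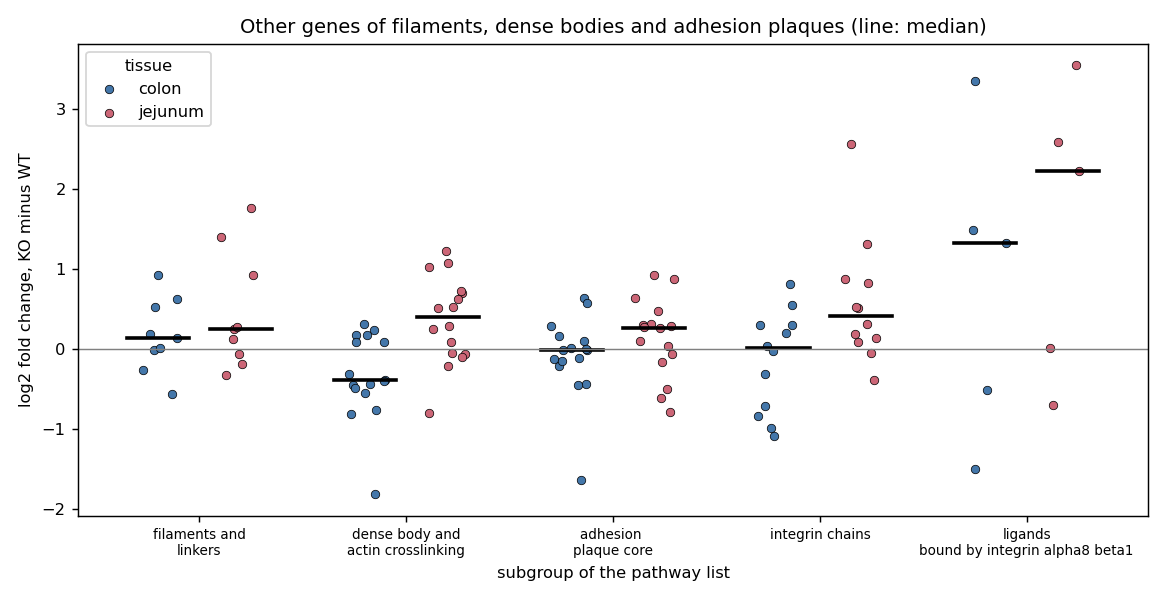
Log2 fold changes of the 58 partner genes by subgroup (filaments and linkers, dense body and actin crosslinking, adhesion plaque core, integrin chains, ligands of integrin alpha8 beta1), 1 point per gene and a line at the median, for libraries labelled KO against WT in colon and in jejunum. The jejunum points lie mostly above 0 (42 of 58), and the lowest colon point is Ldb3 at -1.82.

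Colon nuclei showed in which cell classes each transcript was counted. Nuclei with at least 200 detected genes and under 5% mitochondrial UMIs were kept, which left 3138 of 3476 barcodes in WT and 1992 of 2164 in KO, at median depths of 1417.5 and 1673 UMIs. The 2 libraries shared 11 barcodes. Clusters were named from marker genes, and the smooth muscle-like class held 1484 nuclei (1025 WT and 459 KO), or 28.9% of nuclei and 25.6% of UMIs. A deep cluster of 96 nuclei, at a median of 10273 UMIs, stayed unnamed. It held 1.87% of nuclei but 18.2% of UMIs. From 13.8% (Des) to 20.3% (Vim) of the UMIs of each member lay in it, and these are assigned to no cell type. Levels are CPM of the UMIs summed per class, and intervals are exact Poisson intervals that cover counting error only.

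Of the 9 genes, 7 were highest in the smooth muscle-like class. Both libraries together gave Flna 2558 CPM there (95% interval 2508 to 2609), Vcl 1085 (1052 to 1118), Des 1064 (1032 to 1097) and Actn1 828.1 (799.7 to 857.3). Synm stood at 227.5 CPM, Tln1 at 296 and Ilk at 85.58. This class held 72.2% of all Des UMIs, 67.0% of Flna, 61.2% of Synm and 59.7% of Vcl. It held less of the others, with 49.4% of Actn1, 49.1% of Ilk and 46.2% of Tln1. Actn1 also reached 530.1 CPM in enteric neuron-like nuclei. Tln1 reached 276.6 CPM in B lymphocyte-like nuclei, whose interval (179 to 408.3) included the smooth muscle-like value.

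The other 2 genes, Vim and Itga8, peaked elsewhere. Vim was highest in mesothelial-like nuclei, the lining cells of the outer gut surface, at 761.6 CPM (720.2 to 804.7), which held 41.3% of its UMIs. In the smooth muscle-like class it was at 55.07 CPM (47.92 to 62.98), with 6.95% of its UMIs. Itga8 was highest per UMI in nuclei like interstitial cells of Cajal, the pacemaker cells of the gut, at 289.3 CPM (227.9 to 362.1). Enteric glia-like nuclei followed at 163.2 CPM (145.4 to 182.6) with 24.8% of its UMIs, and smooth muscle-like nuclei at 100.6 CPM (90.83 to 111.1) with 31.7%.

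**Figure D4:**
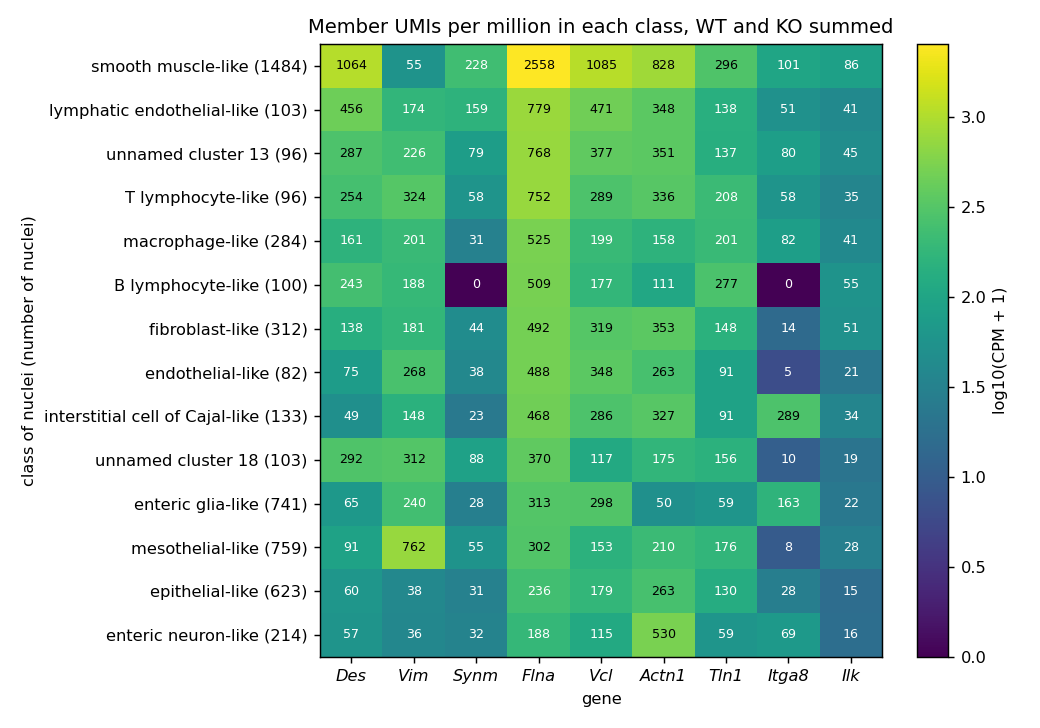
Heatmap of CPM of the 9 genes (columns) in each cell class of the colon nuclei (rows, with numbers of nuclei), both libraries summed, coloured by log10(CPM + 1). The smooth muscle-like class is brightest for 7 genes, with Flna at 2558 CPM, while Vim peaks in mesothelial-like nuclei and Itga8 in nuclei like interstitial cells of Cajal.

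With 1 nuclei library per genotype there is no test between genotypes, and the ratios compare the 2 libraries. In smooth muscle-like nuclei Des was at 909.8 CPM in WT and 1302 CPM in KO, a log2 ratio of 0.52 (0.43 to 0.61). Synm was at 265.2 and 169.5 CPM (-0.65, -0.86 to -0.43), which is the same sign as in both bulk tissues. Actn1 was at 639.5 and 1119 CPM (0.81), Tln1 at 236.2 and 388.3 CPM (0.72) and Ilk at 66.08 and 115.6 CPM (0.81). Flna (0.18), Vcl (-0.17) and Itga8 (-0.34, -0.65 to -0.03) lay nearer to 0. Vim was at 28.99 and 95.27 CPM (1.72, 1.29 to 2.15), from 68 and 145 UMIs. It was the only member at least 2-fold apart, and 7.55% of the 5300 genes with enough UMIs were. The WT level of Vim lay below that of WT epithelial-like nuclei (43.15 CPM), so it is at background and no size of change is read from the ratio. The log2 ratio had the same sign as the bulk colon change for 5 of 9 members, and for 6 of 9 when all nuclei were summed. Over all nuclei Des was at 0.16 and Itga8 at -0.69, while Vim was at 1.11.

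Different clusters held most of the class in the 2 libraries. A cluster led by Colec10 and Grm8 held 38.0% of WT and 8.5% of KO smooth muscle-like nuclei. A cluster led by Fn1, Flnc and Itga5, with Des among its 10 leading genes, held 9.3% and 34.0%, and a cluster led by Fbn2 held 6.2% and 23.5%. The cluster led by Id4 held 34.4% and 27.5%. Another, led by Hs3st4, held 12.1% and 6.5%. In this one only 4 of 10 smooth muscle markers were at least 2-fold higher. Its interstitial cell of Cajal markers summed to 2507 CPM in WT and 3846 CPM in KO, against 572.5 and 544.7 CPM in the whole class. Within clusters the Des log2 ratio ran from 0.19 to 1.11, and those of Vim from 0.4 to 2.2, all above 0, with counting intervals that included 0 in the Id4 and Colec10 clusters for Des and in the Id4 and Hs3st4 clusters for Vim. Synm was below 0 in 3 of 5 clusters, at -1.01 in the Colec10 cluster, and above 0 in the Fbn2 (0.19) and Hs3st4 (0.45) clusters. Tln1 ran from 0.04 to 0.91 and Actn1 from 0.1 to 0.92. Itga8 differed in sign, from 240 to 59.19 CPM in the Fbn2 cluster (-2.02) and from 46.32 to 111.9 CPM in the Colec10 cluster (1.27), and its class value turned to 0.16 with finer clusters. Summed fibroblast markers in the class were 1753 CPM in WT and 2692 CPM in KO, pericyte markers 482.6 and 898.1 CPM, and smooth muscle markers 38650 and 32440 CPM. Their part in the ratios was not tested.

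**Figure D5:**
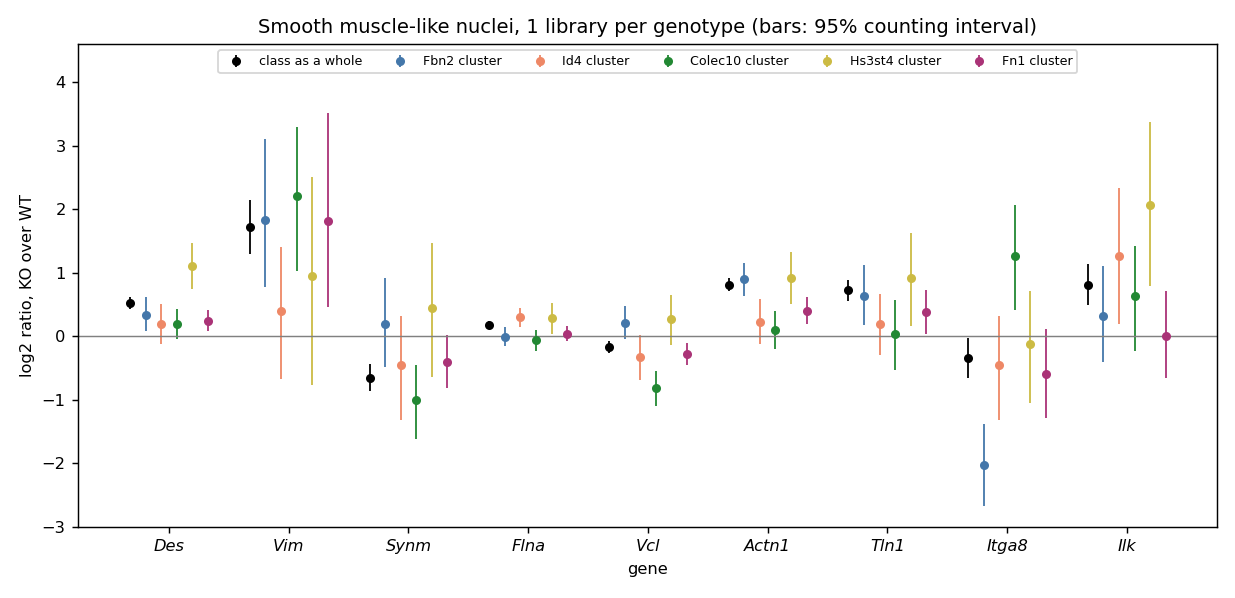
Log2 ratio of CPM, KO over WT library, of the 9 genes in the smooth muscle-like class (with exact 95% counting intervals) and in each of its 5 clusters (likewise), named by a leading gene. Vim and Des are above 0 in the class and in each cluster, and Itga8 ranges from -2.02 to 1.27 across clusters.

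Shares of nuclei with at least 1 UMI were compared after thinning each nucleus to 500 UMIs, which left 878 WT and 428 KO smooth muscle-like nuclei and dropped 147 and 31. Des was seen in 36.9% of WT and 44.63% of KO nuclei (63.51% and 72.77% before thinning, at median depths of 1617 and 2234 UMIs). Epithelial-like nuclei, which should lack Des, gave 1.92% and 1.45% at median depths of 1065 and 1157.5 UMIs. Enteric glia-like nuclei gave 2.165% and 1.58%. Lymphocytes should lack Des too, yet B lymphocyte-like nuclei gave 13.64% (3 of 22 WT) and 11.76% (4 of 34 KO). T lymphocyte-like nuclei gave 0 of 15 WT and 2 of 41 KO. The background of Des thus differed between classes, and the epithelial-like shares lie at its low end. Tln1 was seen in 11.85% and 19.16% (36.2% and 55.12% before thinning), against 7.4% and 8.7% in epithelial-like nuclei. Actn1 was seen in 27.22% and 36.68% (59.12% and 70.81%), against 12.05% and 7.25%. Synm was at 9.79% and 8.18% (31.32% and 29.85%), against 1.64% and 1.45% in epithelial-like nuclei. Vim was in 1.71% of WT and 4.44% of KO nuclei (5.27% and 19.83%), against 2.74% and 0.725% in epithelial-like nuclei, so the WT share is read as background and no size of change is read from Vim here. Flna was in 68.11% and 69.86% (86.54% and 91.29%), against 7.4% and 6.52% in epithelial-like nuclei, and Vcl in 41.12% and 37.15% (68.98% and 70.37%), against 8.49% and 7.97%. Ilk was in 3.3% and 7.71% (12.88% and 27.89%), against 0.548% and 0.725%. Itga8 was in 4.67% and 4.91% (14.83% and 14.81%), an order opposite to that of its CPM, so no order is read from it. Among epithelial-like nuclei it was in 0 of 365 WT and 0 of 138 KO, where the exact upper limits are 1.01% and 2.64%.

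In mesothelial-like nuclei, where Vim was highest, it stood at 499 CPM in the WT and 886 CPM in the KO library (log2 ratio 0.83, 0.63 to 1.03). After thinning it was seen in 22.32% and 32.75% of these nuclei. The class pooled a cluster of 282 WT and 144 KO nuclei with a cluster of 102 WT and 231 KO nuclei. In the latter, 5 fibroblast markers were at least 2-fold higher beside 5 mesothelial ones. The part of this uneven mix in the Vim ratio was not tested. Itga8 in nuclei like interstitial cells of Cajal was at 354.1 and 214.1 CPM (-0.73, -1.47 to -0.01), from 50 and 26 UMIs, and in enteric glia-like nuclei at 184.3 and 116.1 CPM (-0.67, -1.08 to -0.27). By CPM, Itga8 was thus lower in the KO library in both of these classes. After thinning, enteric glia-like nuclei gave 6.496% (4.513 to 9.002) in WT and 4.737% (2.189 to 8.801) in KO, with overlapping intervals. In the smooth muscle-like class the lower CPM in KO turned with finer clusters, and the thinned shares ran the other way. No order is read for that class. All of these values again compare 1 library with 1 library.

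Open chromatin was read at regions that the deposited matrices list, called separately in each library (35003 in WT and 26493 in KO). Regions covered the gene start of 6 members in WT (Vim, Vcl, Actn1, Tln1, Itga8 and Ilk) and of 6 in KO, where Synm was covered and Actn1 was not. Over 22028 protein-coding genes the share was 46.1% in WT and 39.46% in KO. The promoter bases printed above lie inside these regions in both libraries for Vcl, Vim and Itga8, and in the KO library only for Synm. No listed region covered the annotated start of Des or Flna in either library, which does not show that the sites are closed. For Flna the start looked up is base 74249820 of chromosome X. The RefSeq start used in its promoter search is base 74246534, and regions there were not looked up. Counts per 1000000 region counts were compared between smooth muscle-like and all other nuclei of a library. At the Itga8 start they were 64.22 (47.66 to 84.66) and 34.25 (26.7 to 43.27) in WT, a ratio of 1.88, and 48.94 and 26.71 in KO, a ratio of 1.83. At Actn1 in WT the ratio was 1.77, from 87.34 and 49.41. At Vim the ratio was 0.642 in WT (43.67 against 68.0) and 1.2 in KO (122.4 against 102.3). The regions differ in bounds between the libraries, so their values were not compared between genotypes. Ratios at Vcl were 0.986 and 1.1, at Tln1 1.39 and 0.759, and at Ilk 1.03 and 1.35. The median over all start-site regions was 1.02 in WT and 1.08 in KO.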

How the data were processed

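The deposited bulk table holds raw counts per gene for 12 libraries, and per the submitters' processing notes the tools included STAR 2.0.4b, Subread with featureCounts 1.4.5, edgeR and Cell Ranger, on GRCm38 (mm10). Nothing used here states whether counting used strand. Of 40757 rows, 276 repeated rows were dropped, and 99.7% of the gene IDs matched GENCODE M21. The deposited nuclei matrices hold counts of UMIs per gene and counts per region, made with cellranger-arc 2.0.0 per the file headers. All gene values were even and were divided by 2, and region counts were left as deposited.

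Counts were fitted once over the 12 libraries and 20886 genes with edgeR 4.0.16 in R 4.3.3 (TMM scaling, filterByExpr, robust quasi-likelihood test), with Benjamini-Hochberg adjustment over all genes and 0.05 as threshold. The contrasts were genotype in each tissue, their difference, and tissue in WT. SE denotes the standard error of the log2 fold change. CPM are counts per 1000000 of the scaled library size, and likeness used log2 CPM with a prior count of 2. DESeq2 1.42.0, limma 3.58.1, other scalings and filters, and each library left out were alternatives. On simulated counts with 100 changed genes at each fold among 20886, the colon contrast recovered 19% at a log2 change of 1 and 88% at 2, and the jejunum contrast 10% and 83%.

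Nuclei were clustered with scanpy 1.11.5 (2000 variable genes, 30 principal components, Leiden resolution 1.0). A cluster was named where at least 3 markers of a type were at least 2-fold higher in it. Even so, it stayed unnamed where many of its leading genes were mitochondrial, or where these held more markers of other types than of its own. It also stayed unnamed where depth was low and no marker of its own type led. With finer clusters, 1 cluster of 167 WT and 102 KO nuclei stayed unnamed although 10 of 10 smooth muscle markers were at least 2-fold higher. The smooth muscle-like class of that setting therefore lacks it. The doublet caller marked 1 and 0 nuclei, so it did not work and none were removed. Nuclei with high doublet scores (79 WT, 32 KO) were left out as an alternative.

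Named genes were the 9 members, Carmn, the genes of a list of 58 partners that passed (or the 3 smallest p where none did), the 5 genes most like Des, Vim and Itga8, and those named as overlapping neighbours. The members, lists and markers were chosen with earlier results of these data known. A gene that this rule names is not reported here.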

Additional observations from a re-analysis of the deposited data

How the results depend on the processing

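Genes called in colon numbered 81 as reported, 960 with DESeq2, 0 when only the 2 groups compared were fitted, and 7 to 180 with a library left out. In jejunum they numbered 45, with 26 under total-count scaling, 805 with DESeq2, 76 with limma voom, 21 with 2 groups and 2 to 172 with a library left out. The difference gave 0, 38 with DESeq2 and 0 to 1 with a library left out. The WT tissues gave 325, with 1156 under DESeq2, 904 with 2 groups and 79 to 557 with a library left out, and total counts turned their split from 145 higher and 180 lower to 158 and 111.

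Of the 58 partner genes, calls in colon were 1, 7 with DESeq2, 0 with 2 groups and 0 to 2 with a library left out. In jejunum they were 0, 9 with DESeq2 and 0 to 1, and DESeq2 called 1 in the difference. Between tissues they were 3, 7 with DESeq2, 7 with 2 groups and 1 to 4. Of the members DESeq2 called 1 in colon, 1 in jejunum and 1 between tissues, and the 2-group fit called 2 between tissues (Vim -0.92, adjusted p = 0.0232, and Itga8). With a library left out 0 to 1 member was called between tissues, Itga8 without KO colon t4 (2.22, adjusted p = 0.00215).

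The log2 change turned sign per smooth muscle marker for Des (0.27), Flna (0.21), Actn1 (0.58) and Tln1 (0.43) in colon and for Actn1 between tissues (-0.04). It turned with a library left out for Actn1 in colon (range -0.41 to 0.10) and between tissues (-0.05 without WT colon t7, to 0.33), for Vim in the difference (-0.09 without KO colon t4, 0 without KO jejunum t1, to 0.59) and for Flna between tissues (-0.23 to 0.08, with 0.01 without WT jejunum t7, and 0.03 under total counts). The other fits of a named gene with a library left out kept sign and side of the threshold in 553 cases, with 4 gaining and 12 losing a call. Scaling without the most abundant genes gave no value for Des or Flna, which are among them.

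Deviations of WT colon and WT jejunum libraries that share a number correlated at 0.10 (t1), -0.01 (t6) and 0.06 (t7). Only t1 correlated best with its own number. The KO libraries m1 and t4 gave -0.16 and -0.09. Low correlations between different tissues cannot show whether libraries with the same number came from the same mouse, so pairing is not known. With the replicate block the WT tissue contrast called 29 genes and 1 partner gene, and the Itga4 call was lost (adjusted p = 0.0769). In smooth muscle-like nuclei the log2 ratios kept their sign under a stricter gene minimum, another total, finer clusters and removal of high doublet scores, except Itga8 with finer clusters (0.16), while Synm, Flna, Vcl and Itga8 had both signs across the 5 clusters. Low counts and exon bases shared with Taf10 and Rrp8 limit Ilk in bulk, and low counts limit Vim in smooth muscle-like nuclei. Regions within 1000 bases of a start gave the same 6 and 6 members.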
